A study of Mus musculus with 12 samples.

Results

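Potassium channel genes were taken as all protein-coding mouse genes whose symbol starts with Kcn and whose mean over the 12 libraries was at least 0.5 CPM, read counts scaled to a common library total. The annotation held 94 such protein-coding genes, 93 had counts in the deposited tables, and 71 reached the limit, of 33560 genes with counts in all. All 71 entered every test. The members just inside the limit were Kcnk13 at 0.57 CPM and Kcnrg at 0.59 CPM, and the genes just outside it were Kcne3 at 0.38 CPM and Kcnj10 at 0.33 CPM. They were described over 4 groups of 3 poly(A) RNA libraries from neurons that were derived in culture from mouse embryonic stem cells and harvested at day 21. Neurons were wild type (WT) or carried a deletion of a microexon of the formin gene Daam1 (KO). They received water as vehicle, or the ROCK kinase inhibitor Y-27632 at 10 µM, for 2 h. Each genotype was represented by 3 labelled cell lines, numbered 1 to 3, and each line gave 1 vehicle and 1 inhibitor library. Whether a line was a single clone, and whether its 2 libraries came from separate cultures, is not given in the sources used here, so p-values measure the spread between these libraries. The text on the series speaks of hippocampus, and the sample labels, which describe cultured neurons, were followed.

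Potassium channels let potassium ions leave the cell along their gradient, which holds the resting membrane potential negative and ends each action potential. Voltage-gated channels open on depolarization, inward rectifiers and two-pore domain channels carry current near rest, and other channels open when calcium or sodium ions enter. Accessory subunits change how many pores reach the membrane and how fast they open and close, and neurons combine many of these genes to set how often they fire.

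Library totals ran from 23253566 to 35012561 counts. Daam1 was measured at 133 to 188 CPM in 11 libraries and at 67.8 CPM in the KO inhibitor library of line 3, a gene-level value that a deleted microexon need not change and that does not check the genotype. That library stood apart from the other 11. Its summed CPM of 6 general neuron markers was 1013, against 3044 to 4548 in the others, and its sum of 7 astrocyte markers was 1031, against 184 to 348. Of the astrocyte markers Slc1a2 alone went the other way, at 71.3 CPM there and at 104 to 167 CPM in the other 11. Progenitor markers summed to 744 there against 39.0 to 323, and 6 oligodendrocyte lineage markers to 553 against 24.0 to 169, with Sox10, a defining gene of that lineage, at 0.29 CPM. The sum of 7 mesenchymal markers was 1112 CPM in WT vehicle line 2 and 746 CPM in WT inhibitor line 3. It was 33.5 to 107 CPM in the 6 KO libraries and 109.8 to 1112 CPM in the 6 WT libraries, with a narrow gap and no overlap. Of its markers only Col3a1 and Dcn also did not overlap. Col1a1, Col1a2, Lum, Twist1 and Prrx1 overlapped, with Col1a1 at 44.0 CPM in KO and 37.3 CPM in WT vehicle line 3. In vehicle 3 further sums did not overlap between genotypes. GABAergic markers summed to 699 to 768 CPM in KO against 586 to 634 in WT. Pluripotent markers summed to 20.0 to 22.2 against 16.6 to 18.6, and endothelial markers to 1.65 to 4.61 against 5.23 to 20.5. Single markers of these lists disagreed. The GABAergic gap came from Gad1, Gad2 and Slc32a1. Sst was at 114, 112 and 103 CPM in KO and 130, 139 and 107 in WT vehicle, in line order. The pluripotent sum was mostly Esrrb, at 19.0, 20.8 and 21.7 CPM in KO and 15.3, 12.9 and 16.1 in WT vehicle. Dppa5a was lower in KO without overlap, at 0.26 to 0.48 CPM against 0.65 to 3.85. The endothelial gene Cldn5 had no count in any library, and the sum of 5 endothelial markers was at most 33.2 CPM. Muscle and mural markers summed to 3.46 to 114 CPM over the 11 libraries without KO inhibitor line 3 and to 55.8 CPM in that one. In the same order, microglia markers summed to 0.65 to 10.0 and 13.2, and pluripotent markers to 15.4 to 22.2 and 11.1 CPM. The glutamatergic label was met by Slc17a6, at 242 to 423 CPM outside the KO inhibitor library of line 3. The other 7 glutamatergic markers were low, at most 12.6 CPM, and the GABAergic marker sum was 560 to 768 CPM in the same 11 libraries, above the glutamatergic sum of 250.1 to 428 CPM.

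RefSeq promoter windows on build GRCm38.p6 were matched for 49 of the 71 members. Kcnd2 and Kcnk5 are shown because they lay at opposite ends of the 12 libraries in the one that stood apart, Kcnd2 at its lowest and Kcnk5 at its highest value. Each window is the 250 bases before the annotated start, printed 5′ to 3′ on the gene's own strand, and capitals mark the GC box GGGCGG, searched on both strands. The Kcnd2 window lies at chr6:21215096-21215345 on the plus strand, and that of Kcnk5 at chr14:20181783-20182032 on the minus strand.
Kcnd2: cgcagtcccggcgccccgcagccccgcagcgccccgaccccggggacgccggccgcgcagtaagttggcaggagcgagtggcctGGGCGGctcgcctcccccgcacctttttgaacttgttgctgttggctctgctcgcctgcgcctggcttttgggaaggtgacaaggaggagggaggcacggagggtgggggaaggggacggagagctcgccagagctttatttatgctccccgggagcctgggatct
Kcnk5: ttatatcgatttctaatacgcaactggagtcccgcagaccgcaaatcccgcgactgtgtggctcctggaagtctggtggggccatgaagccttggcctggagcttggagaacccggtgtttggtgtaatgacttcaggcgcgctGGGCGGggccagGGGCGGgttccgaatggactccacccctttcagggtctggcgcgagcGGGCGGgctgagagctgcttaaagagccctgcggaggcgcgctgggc
The Kcnd2 window held 22 CpG dinucleotides, 68.8% G or C and 1 GC box. The Kcnk5 window held 19 CpG dinucleotides, 62.8% G or C and 3 GC boxes. Neither held the TATA box TATAAA, searched on both strands. The same held for the CCAAT box, searched as those letters, and for the cAMP response element TGACGTCA. Over the 68 windows of the 49 members, 47.1% held a GC box, against 32.7% of all 32851 windows of that length. A TATA box was found in 1.47% of the members' windows against 12.4% of all, and a CCAAT box in 27.9% against 33.8%. The cAMP response element was found in 0% of the members' windows and in 1.55% of all. The median window held 9 CpG dinucleotides in the members and 6 over all windows.

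Levels between genes were compared in the deposited cRPKM, an RPKM value, corrected for gene length, whose further correction the labels leave unexplained. The highest mean level among the 71 members was that of Kcnk9, at 56.1 cRPKM, followed by Kcnip1 at 38.1, Kcnab2 at 34.4, Kcnd2 at 33.3 and Kcnc4 at 24.8 cRPKM. Two-pore domain genes held 21.5% of the members' summed cRPKM on average, KChIP genes 11.9%, Kv3 genes 11.2% and Kv1 genes 8.57%. Of the same sum over all 71 members, Kv7 genes held 7.83% and Kv4 genes 7.42%. Inward rectifiers held 4.44% in spite of 10 members, and the class of the calcium-activated BK pore Kcnma1 and its relative Kcnu1 held 1.05%. The summed cRPKM of the 71 members was 486 to 652 in 11 libraries and 246 in the KO inhibitor library of line 3.

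**Figure D1:**
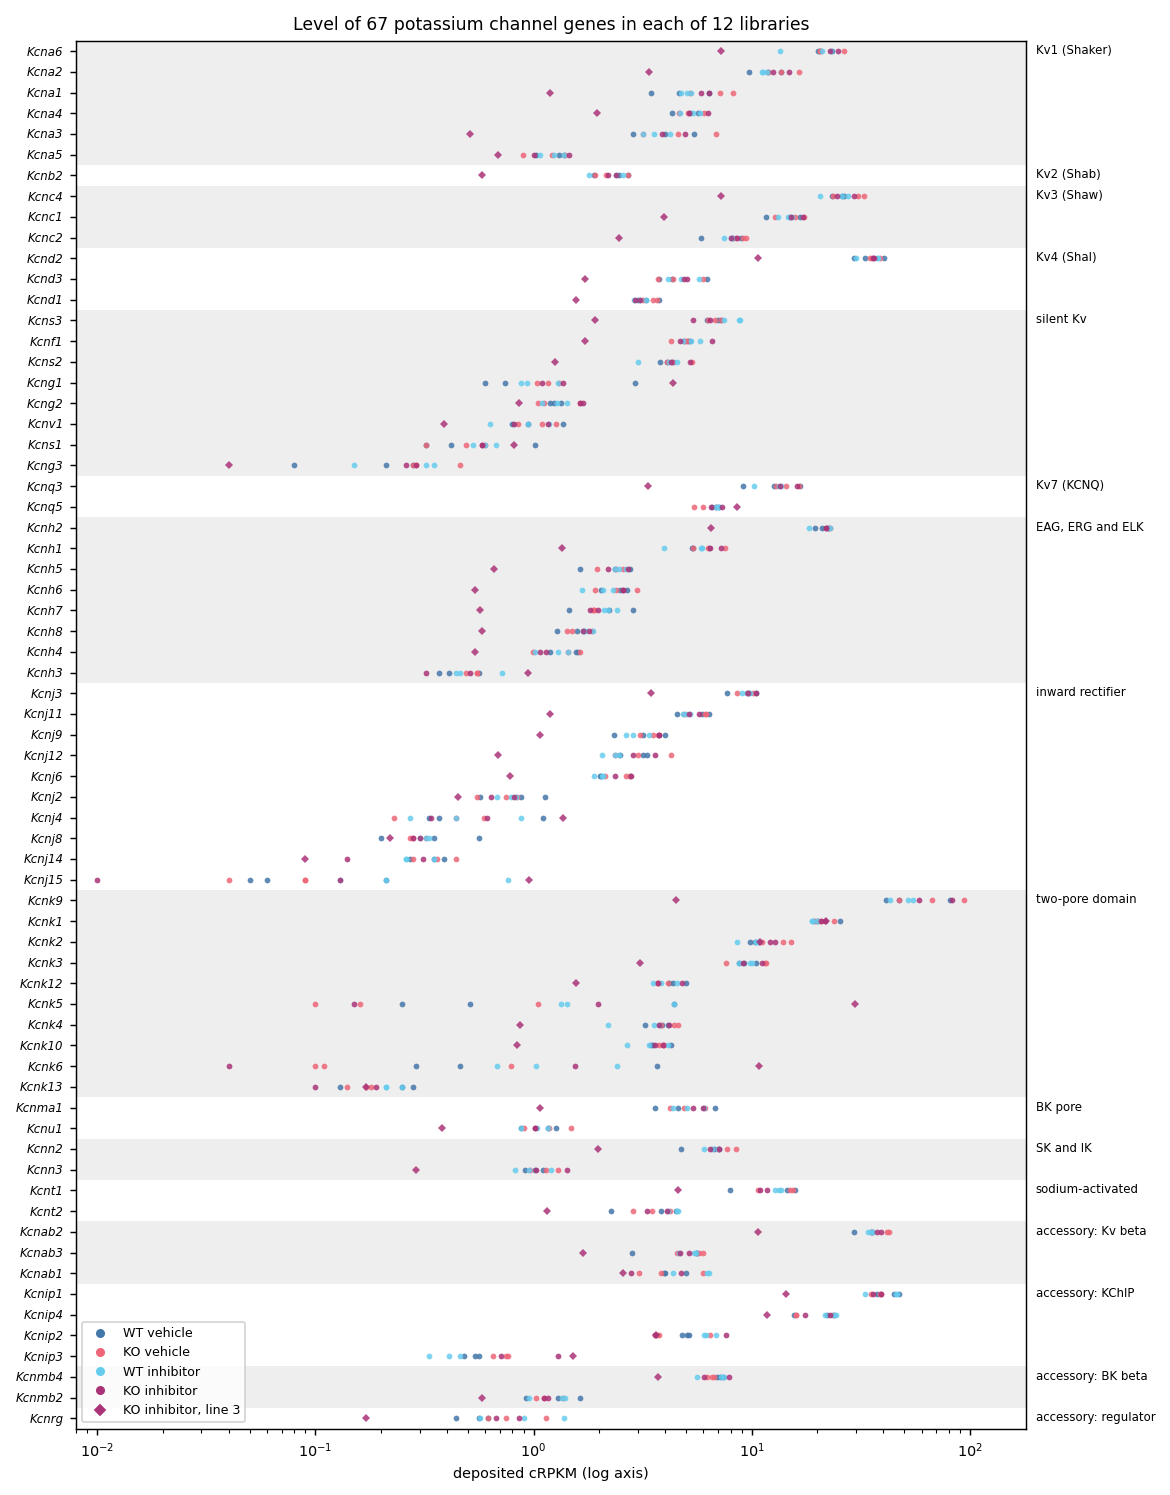
Deposited cRPKM on a log axis for 67 of the 71 potassium channel genes, grouped by class; every point is 1 of the 12 libraries and the diamond is the KO inhibitor library of line 3. The diamond lies left of the other points in most members and right of them for Kcnk5 and Kcnk6, and Kcnk9 has the highest mean level (56.1 cRPKM).

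Among the Shaker-type Kv1 pores, which repolarize axons, Kcna6 had the highest level, with a mean of 20.4 cRPKM. Kcna6 was measured at 109.9, 119 and 128 CPM in WT vehicle, 118, 115 and 152 in KO vehicle, 116, 131 and 75.7 in WT inhibitor, and 126, 141 and 38.1 in KO inhibitor libraries, in line order. Kcna3, a Kv1 pore also well known from lymphocytes, was measured at 7.02, 5.26 and 9.53 CPM in WT vehicle, 5.85, 8.26 and 12.5 in KO vehicle, 6.34, 7.63 and 5.71 in WT inhibitor, and 6.9, 8.93 and 0.86 in KO inhibitor libraries. In both genes the KO inhibitor library of line 3 was the lowest of the 12, and the remaining libraries of the 4 groups overlapped. Of 8 Kv1 genes measured, Kcna7 and Kcna10 stayed below the limit.

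Kcnc4, a fast Kv3 pore, was measured at 91.1, 86.5 and 93.5 CPM in WT vehicle, 87.3, 111 and 120.1 in KO vehicle, 92.8, 100.1 and 73.9 in WT inhibitor, and 87.8, 107 and 24.3 in KO inhibitor libraries. All 4 Kv3 genes were members, with mean levels of 7.73 cRPKM for Kcnc2 to 24.8 for Kcnc4. Kcnd2 (ENSMUSG00000060882, chr6:21215503-21729805, GENCODE M21), a Kv4 pore of the dendritic A-type current, had the highest mean CPM of all members. Kcnd2 was measured at 165, 155 and 201 CPM in WT vehicle, 184, 182 and 202 in KO vehicle, 192, 193 and 155 in WT inhibitor, and 184, 185 and 51.4 in KO inhibitor libraries. Its relative Kcnd1 was measured at 16.6, 16.3 and 19.3 CPM in WT vehicle, 18.9, 19.3 and 16.9 in KO vehicle, 16.1, 17.4 and 15.3 in WT inhibitor, and 15.2, 16.3 and 7.75 in KO inhibitor libraries, so that both were lowest in the same KO inhibitor library.

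Kv7 pores carry the M-current, which opens below the firing threshold. Kcnq5, a Kv7 pore, had the smallest spread of all 71 members over the 12 libraries, with an SD of 0.14 on the log2(CPM + 0.1) scale. Kcnq5 was measured at 44.4, 49.1 and 47.9 CPM in WT vehicle, 42.6, 37.8 and 48.3 in KO vehicle, 47.5, 49.5 and 48.6 in WT inhibitor, and 50.2, 45.8 and 56.0 in KO inhibitor libraries, and here the KO inhibitor library of line 3 was the highest.

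In the EAG, ERG and ELK class, Kcnh2, the ERG pore whose loss prolongs cardiac repolarization, had the highest level at 20.4 cRPKM. Kcnh2 was measured at 85.5, 83.8 and 90.8 CPM in WT vehicle, 95.5, 95.4 and 95.2 in KO vehicle, 92.2, 95.8 and 76.1 in WT inhibitor, and 90.6, 92.1 and 25.5 in KO inhibitor libraries. The ERG pore Kcnh7 was measured at 28.1, 19.4 and 36.5 CPM in WT vehicle, 25.3, 24.7 and 25.0 in KO vehicle, 31.2, 28.8 and 27.5 in WT inhibitor, and 25.5, 23.9 and 6.99 in KO inhibitor libraries, and the ELK pore Kcnh4 at 6.09, 4.79 and 6.0 CPM in WT vehicle, 6.55, 5.67 and 3.96 in KO vehicle, 5.58, 5.09 and 4.0 in WT inhibitor, and 4.4, 4.22 and 1.97 in KO inhibitor libraries. Exons of 24 of the 71 members overlap another gene. Exons of Kcnh7 overlap those of Gca on the opposite strand, and whether counting used the strand is not given in the sources used here, so reads of the pair may be mixed. The same limit holds for Kcnh3, whose exons overlap Mcrs1, a gene at 58.0 CPM, while Kcnh3 itself was at a mean of 1.85 CPM.

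Silent Kv subunits form no channel alone and modify Kv2 pores. Kcns3 was the highest of the 8 silent members, at 6.62 cRPKM. Kcns3 was measured at 16.1, 14.7 and 15.7 CPM in WT vehicle, 16.9, 15.6 and 14.6 in KO vehicle, 20.0, 20.1 and 17.1 in WT inhibitor, and 14.6, 12.5 and 4.1 in KO inhibitor libraries. Kcng3 was measured at 0.69, 0.27 and 0.91 CPM in WT vehicle, 0.95, 0.95 and 1.57 in KO vehicle, 1.05, 1.16 and 0.50 in WT inhibitor, and 0.84, 0.98 and 0.13 in KO inhibitor libraries. Kcng1 was measured at 2.92, 12.1 and 2.38 CPM in WT vehicle, 4.32, 5.32 and 4.78 in KO vehicle, 3.52, 3.78 and 5.22 in WT inhibitor, and 4.37, 5.61 and 16.5 in KO inhibitor libraries. Kcns3 and Kcng3 were lowest in the KO inhibitor library of line 3, whereas Kcng1 was highest there and next highest in the WT vehicle library of line 2.

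Inward rectifiers were led by Kcnj3, a pore that G proteins open, at 9.0 cRPKM. Kcnj3 was measured at 47.9, 40.8 and 52.8 CPM in WT vehicle, 50.9, 44.3 and 53.4 in KO vehicle, 46.6, 50.7 and 51.1 in WT inhibitor, and 53.6, 50.5 and 16.8 in KO inhibitor libraries. Kcnj12, a strong rectifier, was measured at 6.95, 5.76 and 7.28 CPM in WT vehicle, 5.45, 6.79 and 9.76 in KO vehicle, 5.29, 5.58 and 4.62 in WT inhibitor, and 6.34, 8.21 and 1.46 in KO inhibitor libraries. Kcnj14 was close to the limit and was measured at 1.00, 0.74 and 0.91 CPM in WT vehicle, 0.77, 1.17 and 0.98 in KO vehicle, 0.69, 0.94 and 0.69 in WT inhibitor, and 0.81, 0.38 and 0.22 in KO inhibitor libraries. Kcnj15, a rectifier known from epithelia, was measured at 0.34, 1.17 and 0.29 CPM in WT vehicle, 0.51, 0.22 and 0.51 in KO vehicle, 1.15, 0.71 and 4.19 in WT inhibitor, and 0.72, 0.058 and 4.96 in KO inhibitor libraries. Its 2 highest libraries were KO inhibitor line 3 and WT inhibitor line 3, both from lines numbered 3 but of different genotype.

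Two-pore domain channels give background, or leak, currents. Kcnk9 (ENSMUSG00000036760, chr15:72501089-72546340), an acid-sensitive leak pore, was measured at 53.4, 49.4 and 92.5 CPM in WT vehicle, 56.3, 78.2 and 111 in KO vehicle, 63.1, 61.0 and 50.3 in WT inhibitor, and 67.0, 97.2 and 4.89 in KO inhibitor libraries. The KO inhibitor library of line 3 held the lowest value and the vehicle library of the same line the highest. Kcnk1 (weak inward-rectifying leak pore) was measured at 41.0, 56.9 and 43.0 CPM in WT vehicle, 44.3, 45.5 and 53.2 in KO vehicle, 41.0, 41.8 and 43.6 in WT inhibitor, and 45.3, 48.0 and 44.9 in KO inhibitor libraries, with an SD of 0.15 on the log2 scale, the second smallest of the members. Kcnk13, a halothane-inhibited leak pore, was measured at 0.83, 0.78 and 0.39 CPM in WT vehicle, 0.55, 0.52 and 0.43 in KO vehicle, 0.62, 0.64 and 0.76 in WT inhibitor, and 0.56, 0.32 and 0.48 in KO inhibitor libraries.

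Kcnk5 (ENSMUSG00000023243, chr14:20140057-20181809), an alkaline-activated leak pore best known from epithelia, was measured at 1.65, 15.1 and 0.82 CPM in WT vehicle, 3.58, 0.52 and 0.35 in KO vehicle, 4.7, 4.49 and 14.7 in WT inhibitor, and 6.53, 0.49 and 92.8 in KO inhibitor libraries. Kcnk6 (ENSMUSG00000046410, chr7:29221926-29232515), a relative of Kcnk1, was measured at 1.75, 14.8 and 1.11 CPM in WT vehicle, 3.18, 0.43 and 0.39 in KO vehicle, 4.01, 2.69 and 9.54 in WT inhibitor, and 6.03, 0.17 and 39.8 in KO inhibitor libraries. These were the most variable members, with SDs of 2.31 and 2.14 on the log2 scale. In both genes the order of libraries began with KO inhibitor line 3, WT vehicle line 2, WT inhibitor line 3, KO inhibitor line 1 and WT inhibitor line 1. For Kcnk5 the order of the first 9 libraries was that of Mki67, a gene of dividing cells on the progenitor list, and also that of Pdgfra on the oligodendrocyte lineage list. Both were picked after their values were seen. Mki67 was at 104, 66.3 and 40.5 CPM in the first 3 of these libraries and at most 22.7 CPM in the other 9. Their part in the Kcnk5 and Kcnk6 values was not tested.

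Channels opened by ions were led by Kcnt1, the sodium-activated pore, at 12.2 cRPKM. Kcnt1 was measured at 90.0, 47.7 and 83.3 CPM in WT vehicle, 90.0, 90.7 and 63.5 in KO vehicle, 79.4, 75.2 and 78.6 in WT inhibitor, and 63.3, 69.5 and 25.1 in KO inhibitor libraries. Kcnma1, the large-conductance (BK) pore that calcium and voltage open together, was measured at 22.1, 18.4 and 33 CPM in WT vehicle, 21.4, 24.3 and 30.9 in KO vehicle, 29.6, 25.1 and 21.6 in WT inhibitor, and 26.3, 29.9 and 4.99 in KO inhibitor libraries. Kcnn2, a small-conductance calcium-activated pore of the afterhyperpolarization, was measured at 24.1, 17.0 and 22.9 CPM in WT vehicle, 25.1, 29.9 and 27.4 in KO vehicle, 22.9, 24.8 and 21.2 in WT inhibitor, and 22.2, 25.1 and 6.51 in KO inhibitor libraries. In all 3 genes the KO inhibitor library of line 3 was the lowest and the WT vehicle library of line 2 the next lowest. Kcnu1, a BK-like pore best known from sperm, reached a mean of 3.61 CPM.

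Accessory members included Kcnab2, a cytosolic beta subunit of Kv1 channels, at 34.4 cRPKM. Kcnab2 was measured at 133, 118 and 136 CPM in WT vehicle, 141, 162 and 169 in KO vehicle, 136, 141 and 132 in WT inhibitor, and 144, 153 and 39.1 in KO inhibitor libraries. Kcnab1 was measured at 15.5, 13.1 and 12.6 CPM in WT vehicle, 19.6, 12.3 and 9.92 in KO vehicle, 19.7, 20.7 and 14.0 in WT inhibitor, and 15.0, 9.08 and 7.72 in KO inhibitor libraries, and its 3 lowest values were those of KO inhibitor lines 3 and 2 and KO vehicle line 3. Kcnip1, a calcium-binding KChIP subunit of Kv4 channels, was measured at 82.6, 69.2 and 78.8 CPM in WT vehicle, 71.7, 70.3 and 64.1 in KO vehicle, 82.5, 83.0 and 59.8 in WT inhibitor, and 69.2, 65.5 and 24.1 in KO inhibitor libraries. Kcnmb4, the neuronal BK beta subunit, was measured at 9.53, 9.38 and 9.27 CPM in WT vehicle, 9.11, 8.69 and 8.43 in KO vehicle, 9.43, 9.92 and 7.43 in WT inhibitor, and 10.2, 8.04 and 4.61 in KO inhibitor libraries. Kcnrg, a soluble protein that resembles the assembly domain of Kv subunits, was measured at 0.34, 0.47 and 0.49 CPM in WT vehicle, 0.51, 0.61 and 0.94 in KO vehicle, 0.72, 1.12 and 0.46 in WT inhibitor, and 0.69, 0.55 and 0.13 in KO inhibitor libraries. None of the 5 measured MinK family genes (Kcne genes) reached the limit.

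**Figure D2:**
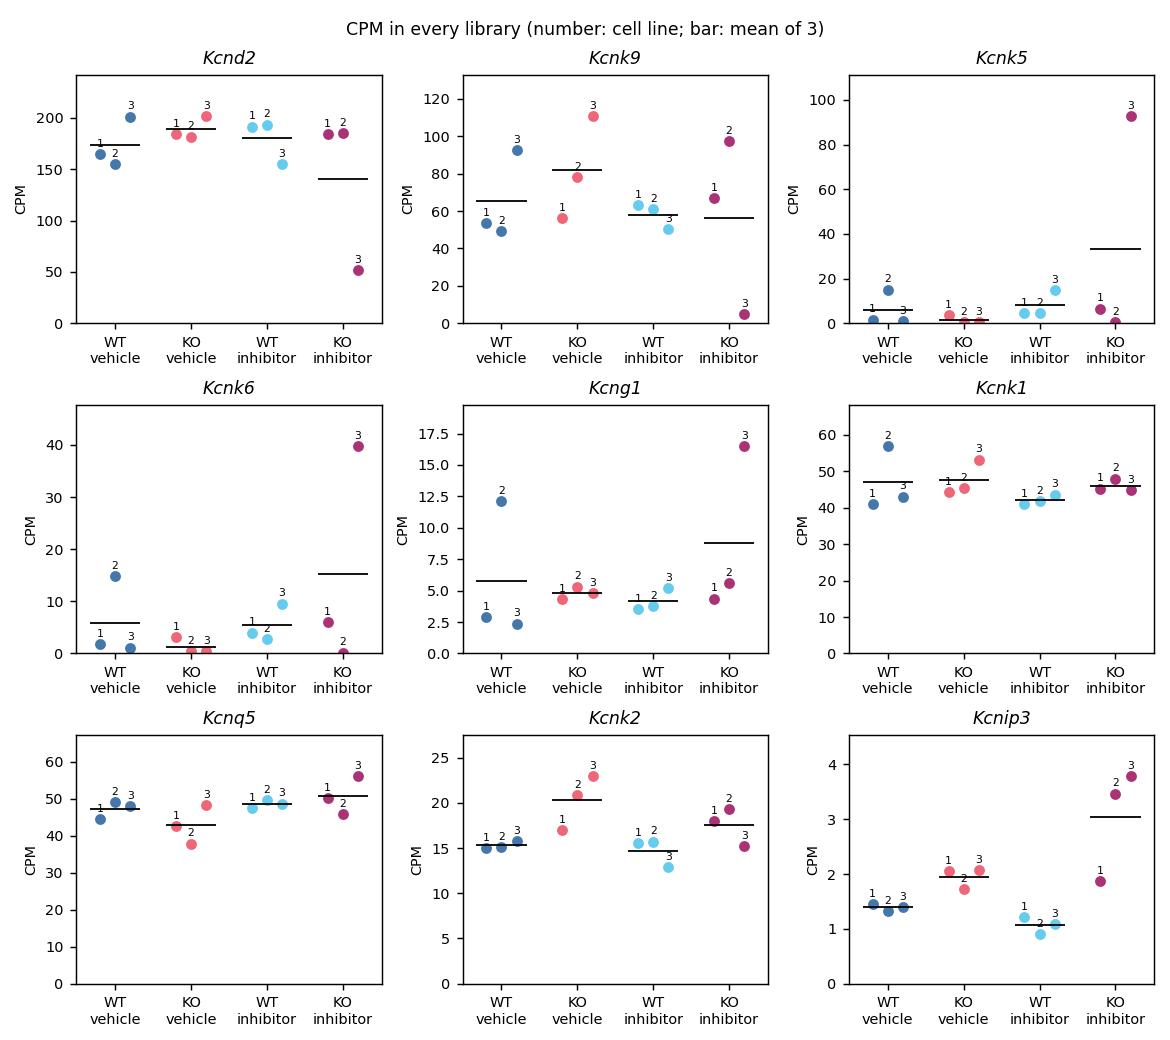
CPM in every library for 9 potassium channel genes, with the cell line number at each point and a bar at the mean of the 3 libraries of a group. The KO inhibitor library of line 3 is far below the rest for Kcnd2 and Kcnk9, far above for Kcnk5 and Kcnk6, the highest for Kcng1, and among the rest for Kcnk1 and Kcnk2.

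The KO inhibitor library of line 3 was compared with the other 2 libraries of its group on the log2(CPM + 0.1) scale. Lower by more than 1 were 51 of the 71 members, where 21.5% of all 15443 tested genes were, and higher by more than 1 were 6 members, where 23.8% of all genes were. The median difference was -1.65 over the members and 0.0086 over all tested genes. This is the difference of 1 library and has no replicate. Kcnk9 was lowest by the widest margin, at -4.02, followed by Kcna3 at -3.05 and Kcnma1 at -2.47. Kcnq3, a pore of the M-current, differed by -2.23, and the Kv3 pores differed by -2.11 for Kcnc1, -1.99 for Kcnc4 and -1.83 for Kcnc2. Of the KChIP genes, 3 were less low, with -1.48 for Kcnip1, -0.85 for Kcnip4 and -0.61 for Kcnip2, and Kcnip3 was higher, at 0.55.

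In 58 members this library was the lowest of the 12 (39% of all tested genes), and in 8 it was the highest (38.4% of all). The 8 were Kcng1, Kcnh3, Kcnip3, Kcnj15, Kcnj4, Kcnk5, Kcnk6 and Kcnq5. The widest gaps upward from the other 2 libraries of the group were 5.55 for Kcnk5, 4.94 for Kcnk6 and 3.81 for Kcnj15. Beside these values stand the marker sums given above, a lower neuron sum and higher astrocyte, progenitor and oligodendrocyte lineage sums. In bulk RNA, fewer cells of a type and less RNA per cell cannot be told apart, and the part of the cell mix in these values was not tested. The vehicle library of the same line did not show the pattern: it was the highest of the 12 in 21 members, where 12.3% of all genes were highest in it. Between the vehicle and inhibitor libraries of that line, Kcnk9 went from 111 to 4.89 CPM, Kcnk5 from 0.35 to 92.8 CPM (9 and 2920 counts) and Kcnk6 from 0.39 to 39.8 CPM (10 and 1251 counts).

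Smaller departures were found in 2 further libraries, downward in most members. In the WT vehicle library of line 2, 54 members were lower and 17 higher than the other 2 libraries of its group. The median difference was -0.23 on the log2 scale, against -0.0044 over all genes. In the WT inhibitor library of line 3, 51 were lower and 20 higher, with a median of -0.23 against 0.034. Lower by more than 1 was 1 member in each library, Kcng3, whose mean was below 1 CPM, so that depth limits its values. In the WT vehicle library of line 2, 7 members were higher by more than 1 on the log2 scale than the other 2 libraries of the group (13.3% of all genes), namely Kcng1, Kcnj15, Kcnj4, Kcnj8, Kcnk5, Kcnk6 and Kcns1. In the WT inhibitor library of line 3, 4 members were (9.36% of all genes), namely Kcnj15, Kcnj4, Kcnk5 and Kcnk6. Kcnj15, Kcnj4, Kcnk5 and Kcnk6 were thus higher by more than 1 in each of the 3 libraries that stood apart.

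**Figure D3:**
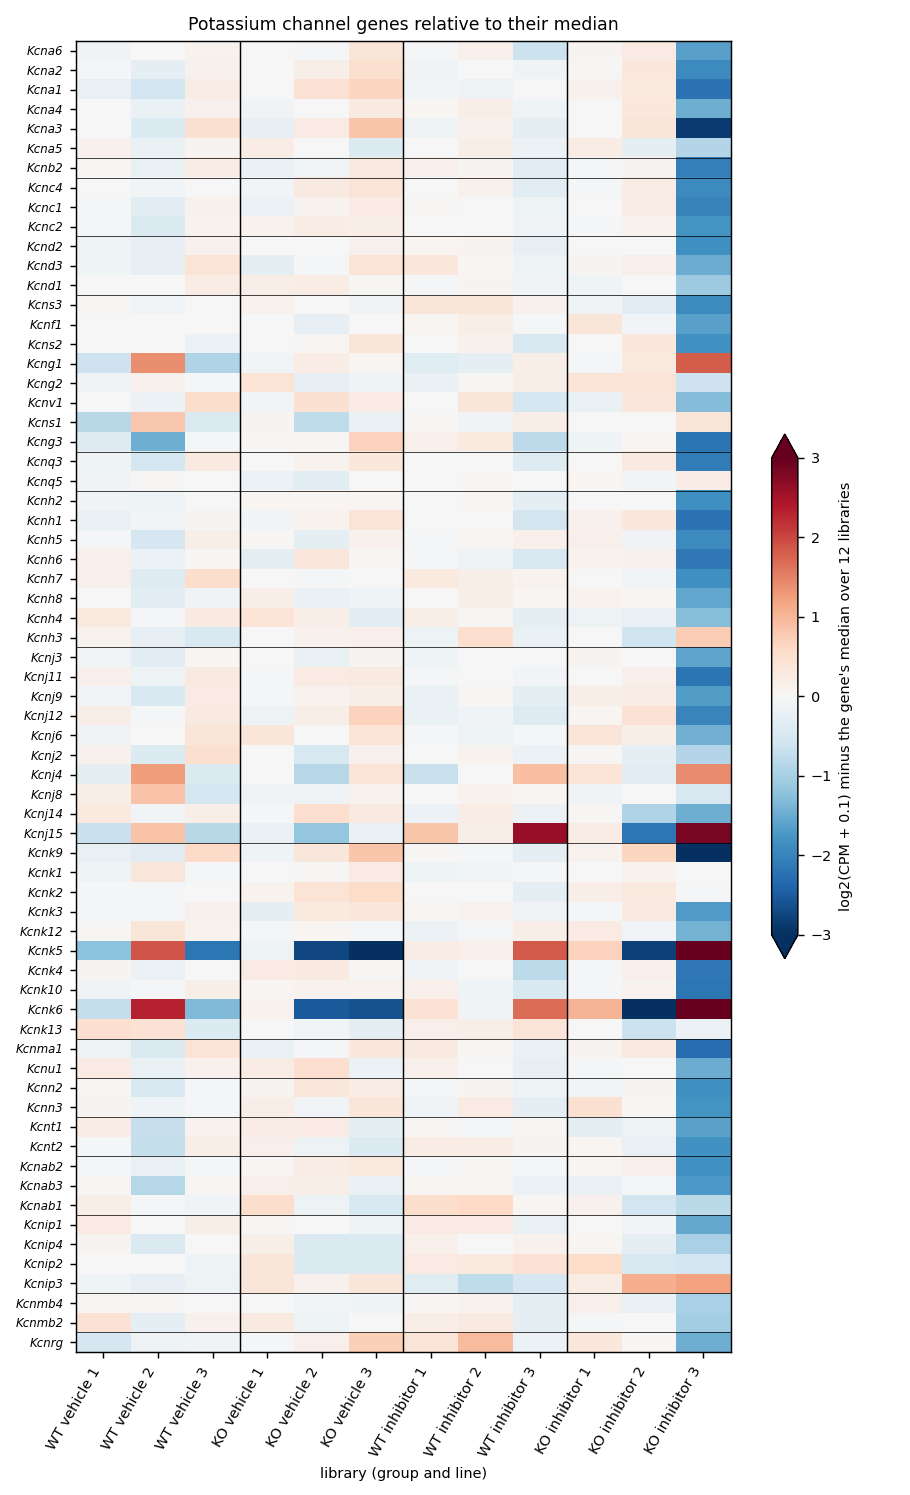
Difference of 67 of the 71 potassium channel genes each from its own median over the 12 libraries, on the log2(CPM + 0.1) scale, with libraries in columns by group and line and colours cut at 3. The last column, KO inhibitor line 3, is low in most members, and Kcnk5 and Kcnk6 are high there, in WT vehicle line 2 and in WT inhibitor line 3.

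The members varied more than other genes over the 12 libraries, and little more without the library that stood apart. The median SD of log2(CPM + 0.1) was 0.549 over the members and 0.370 over all tested genes, and 0.232 and 0.209 over the 11 libraries without KO inhibitor line 3. Among the smallest SDs were those of Kcnq5 (0.14), Kcnk1 (0.15), Kcnk2 (0.23) and Kcnmb4 (0.30). The largest were those of Kcnk5 (2.31), Kcnk6 (2.14), Kcnj15 (1.45), Kcnk9 (1.16) and Kcna3 (0.93).

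Differences between groups were tested with edgeR's quasi-likelihood test over all 15443 genes kept, with Benjamini-Hochberg adjustment. The threshold for a call was an adjusted p of 0.05. In each of the 6 comparisons 0 members and 0% of all genes were called. A lack of calls does not show that levels stayed the same. Between KO and WT in vehicle, for example, the median SE of the members' log2 fold changes was 0.40, so modest changes could be missed. DESeq2 called 1 member, Kcnip3, in 2 of the 6 comparisons and none in the others. The comparisons share libraries, and the values of each are given side by side.

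KO and WT neurons were first compared in vehicle. Of the 71 members, 50 were higher and 21 lower in KO (48.3% of all genes were higher), with a median log2 fold change of 0.078 against -0.010 over all genes. Without WT vehicle line 2, 44 were higher and 27 lower (51.1% of all genes higher), and 18 members turned direction. The median was then 0.039 against 0.0044 over all genes. In the vehicle libraries the GABAergic and pluripotent marker sums were higher in KO and the mesenchymal and endothelial sums lower, without overlap. Single markers of these lists overlapped or went the other way, and the pluripotent sum was mostly Esrrb. The part of these markers in the member counts was not tested. At an unadjusted p below 0.05 stood 1 member, Kcnk2, where 1.99% of all genes did. Without WT vehicle line 2, 0 members did (1.07% of all genes). Without KO inhibitor line 3, which enters only the estimate of the spread here, 5 members did (8.58% of all genes), among them Kcnab2, Kcnk2, Kcna1 and Kcnn2. All 3 KO libraries lay above all 3 WT libraries in 8 members (7.63% of all genes), among them Kcnab2, Kcng3, Kcnh2, Kcnip3, Kcnk2, Kcnn2 and Kcnrg. They lay below in 1, Kcnmb4 (4.9% of all genes). Kcnk6 had the largest fitted difference, -2.13 ± 1.59 (log2 fold change ± SE; adjusted p = 0.999), with WT and KO libraries that overlapped.

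In inhibitor, 12 members were higher and 59 lower in KO (49.9% of all genes were higher). The median log2 fold change was -0.28 against -0.00050 over all genes. With KO inhibitor line 3 left out, 43 members were higher and 28 lower (42.5% of all genes higher). The median was then 0.052 against -0.049 over all genes, so the members' balance of directions turned with that library. At an unadjusted p below 0.05 stood Kcnab1, Kcns3 and Kcnip3, 3 members where 3.5% of all genes did, and without that library 5 members where 9.51% did, among them Kcnk2, Kcns3 and Kcnip3. Kcnab1 differed by -0.78 ± 0.31 and Kcns3 by -0.88 ± 0.36 on the log2 scale (both with an adjusted p of 0.856). Libraries of KO lay above those of WT in Kcnip3 and Kcnk1 (2 members, 3.53% of all genes). They lay below in 6 members (7.02% of all genes): Kcnh7, Kcnj8, Kcnk13, Kcns3, Kcnt1 and Kcnt2. The fitted difference of Kcnk5 was 2.06 with all libraries and -1.18 without KO inhibitor line 3, and that of Kcnk6 was 1.50 and -0.81.

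Inhibitor and vehicle were then compared within WT neurons. Of the members 35 were higher and 36 lower in inhibitor (53.4% of all genes were higher). The median log2 fold change was -0.012 against 0.011 over all genes. At an unadjusted p below 0.05 stood 0 members and 0.304% of all genes, and without KO inhibitor line 3 there was 1 member, Kcns3 (1.35% of all genes). Kcnh8, Kcnip2 and Kcns3 were higher in all 3 inhibitor libraries than in any vehicle library (3 members, 3.04% of all genes), and Kcnip3 and Kcnj12 lower (2 members, 2.93%). Kcnrg had the smallest p, with a difference of 0.82 ± 0.55 (unadjusted p = 0.17, adjusted p = 1, edgeR).

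Within KO neurons, 11 members were higher and 60 lower in inhibitor (48.2% of all genes were higher). The median was -0.38 against -0.018 over all genes. Without KO inhibitor line 3, 32 members were higher and 39 lower (50.7% of all genes higher), with a median of -0.018 against 0.0024 over all genes. In that fit 0 members stood at an unadjusted p below 0.05, where 1.14% of all genes did. With all libraries there were 3 such members, where 7.05% of all genes did: Kcnk5 at 4.47 ± 1.84, Kcnj14 at -1.04 ± 0.42 and Kcnip3 at 0.64 ± 0.28. Kcnk5 stood at 1.23 without that library. With the line as a replicate block these 3 members no longer stood at that p, and Kcnd1, Kcnh4 and Kcnt1 did instead (1.66% of all genes). No member was higher in all 3 inhibitor libraries (3.2% of all genes), and 5 were lower (5.65% of all genes): Kcnc2, Kcnd1, Kcnh2, Kcnn2 and Kcns3. In KO lines 1 and 2, the members' median change from vehicle to inhibitor was 0.029 and -0.040 on the log2(CPM + 0.1) scale, and in line 3 it was -1.74. In WT lines 1, 2 and 3 it was 0.027, 0.26 and -0.27.

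**Figure D4:**
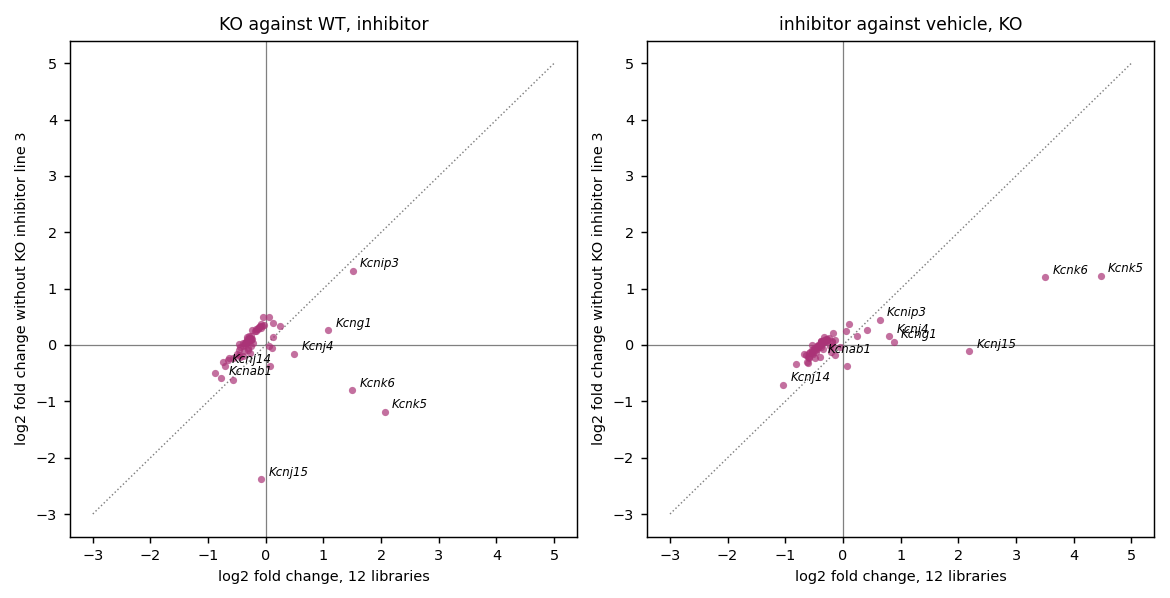
Fitted log2 fold change of 67 of the 71 potassium channel genes with all 12 libraries (horizontal) and with KO inhibitor line 3 left out (vertical), for KO against WT in inhibitor and for inhibitor against vehicle in KO; the dotted line marks equal values. Most points have a small negative horizontal value and lie near 0 vertically, and Kcnk5 and Kcnk6 lie far right of the dotted line.

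The test of whether the inhibitor difference itself differed between genotypes called 0 members. With 11 members positive and 60 negative (49.2% of all genes positive), the median was -0.35 against -0.0097 over all genes. Without KO inhibitor line 3 the count was 37 and 34 (49.5% of all genes positive). Kcnip3 alone stood at an unadjusted p below 0.05 (1 member, 1.2% of all genes), with 1.02 ± 0.40. Without that library Kcns3 alone did (2.02% of all genes), and with the replicate block Kcnab1 alone did (1.08% of all genes).

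The 2 libraries of each line were then summed, and 3 KO lines were compared with 3 WT lines over 16090 genes. In KO, 29 members were higher and 42 lower (60.7% of all genes were higher), with a median of -0.059 against 0.045 over all genes. Without KO line 3 the count was 45 and 26 (48.5% of all genes higher). Kcnk2 and Kcnip3 stood at an unadjusted p below 0.05 (2 members, 2.65% of all genes), and without KO line 3 there were 6 (13% of all genes). With the line number as the replicate block Kcnip3 alone did (1.61% of all genes). KO lines lay above WT lines in Kcnip3 and Kcnk2 (2 members, 3.56% of all genes). They lay below in Kcnj14, Kcnk13 and Kcns3 (3 members, 4.89% of all genes).

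Kcnip3 (ENSMUSG00000079056, chr2:127456498-127522094, minus strand) is a calcium-binding KChIP also known as a transcriptional repressor. It had the smallest unadjusted p between genotypes among the members in inhibitor and over line sums, and Kcnk2 had it in vehicle. Kcnip3 was measured at 1.44, 1.32 and 1.4 CPM in WT vehicle, 2.05, 1.73 and 2.08 in KO vehicle, 1.22, 0.90 and 1.09 in WT inhibitor, and 1.87, 3.47 and 3.78 in KO inhibitor libraries, or 24 to 120 counts a library. It was the only member with all 6 KO libraries above all 6 WT libraries (0.285% of all genes), and no member had all 6 below (0.505% of all genes). The mesenchymal marker sum separated the same libraries the other way, at 33.5 to 107 CPM in KO and 109.8 to 1112 CPM in WT. Of its markers only Col3a1 and Dcn did so singly, and the others overlapped. The part of this sum in the Kcnip3 difference was not tested. The log2 fold change of KO against WT was 0.49 ± 0.28 in vehicle, 1.51 ± 0.29 in inhibitor and 1.10 ± 0.24 over line sums. In inhibitor the edgeR adjusted p was 0.856 (unadjusted p = 3.78e-04), and DESeq2 gave an adjusted p of 0.004, calling it among 0.117% of all genes. Over line sums the edgeR adjusted p was 0.801 and the DESeq2 adjusted p 0.041, a call shared by 0.541% of all genes. Over the alternatives tried, its adjusted p ran from 0.004 to 1 in inhibitor and from 0.041 to 1 over line sums. Without KO inhibitor line 3, the difference in inhibitor was 1.32, so it did not rest on that library. From vehicle to inhibitor, Kcnip3 went from 1.73 to 3.47 CPM in KO line 2 and from 2.08 to 3.78 in KO line 3, and it was slightly lower in inhibitor in KO line 1 and all 3 WT lines.

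Kcnk2 (ENSMUSG00000037624, chr1:189207930-189402273, minus strand), a leak pore opened by stretch, warmth and lipids, was measured at 15.0, 15.1 and 15.8 CPM in WT vehicle, 17.0, 20.9 and 22.9 in KO vehicle, 15.6, 15.7 and 12.9 in WT inhibitor, and 18.0, 19.3 and 15.3 in KO inhibitor libraries. In vehicle the 3 KO values lay above the 3 WT values, by 0.41 ± 0.15 (unadjusted p = 0.022, adjusted p = 0.999, edgeR). In inhibitor the groups overlapped, with 0.25 ± 0.15, and over line sums the difference was 0.34 ± 0.10 (adjusted p = 0.998, edgeR). Its exons overlap an antisense transcript at 1.37 CPM, so a part of these reads may belong to it.

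Of 33 genes that work beside potassium channels, 32 were measured and 30 tested, and 0 were called in any of the 6 comparisons. They comprise 12 partners of Kv channels, the BK gamma subunits, the sulfonylurea receptors of ATP-sensitive channels, the HCN pacemaker channels, the sodium-potassium pump and the cation-chloride cotransporters. In vehicle 17 were higher and 13 lower in KO (48.3% of all genes were higher), and within WT 12 were higher and 18 lower in inhibitor (53.4% of all genes higher). In inhibitor 9 were higher and 21 lower in KO (49.9% of all genes higher), and without KO inhibitor line 3 the count was 21 and 9 (42.5% higher). Within KO 7 were higher and 23 lower in inhibitor (48.2% of all genes higher), and without that library 25 and 5 (50.7% higher), so both balances turned with it. Slc12a7, a potassium-chloride cotransporter, alone stood at an unadjusted p below 0.05 with all libraries, within KO, where 7.05% of all genes did, and was at 54.1 CPM in KO inhibitor line 3 and at 2.68 to 24.6 CPM in the other 11 libraries. Without KO inhibitor line 3 it did not, and Atp1b1 stood at that p between genotypes in vehicle (8.58% of all genes), and Atp1b1 and Dpp6 were among those that did in inhibitor (9.51% of all genes). The summed CPM of the Kv channel partners, which anchor and cluster Kv pores, was 1884 to 2234 in those 11 libraries and 790.2 in KO inhibitor line 3. The HCN channels summed to 283 to 442 and 88.3 CPM, and the sulfonylurea receptors to 23.4 to 35.1 and 5.69 CPM. The pump subunits, which restore the potassium gradient, summed to 4358 to 7065 CPM in the 11 libraries and to 2583 CPM in that one.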

How the data were processed

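Poly(A) RNA of 12 mouse neuron libraries was sequenced with a stranded protocol, per the labels' protocols. For each gene the authors deposited an Ensembl identifier, a whole-number read count that was not normalized, and a cRPKM value, which is RPKM with a correction of unknown form. The submitters' processing notes name the genome build mm10. The aligner, the counter, the annotation and any use of the strand in counting are not given in the sources used here. Of 36902 genes a table, 3342 were NA, and 33400 of the remaining 33560 matched an identifier in GENCODE M21 (GRCm38), which gave symbols, gene types and coordinates.

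Counts were tested with edgeR 4.0.16 (R 4.3.3; TMM, filterByExpr by group, robust quasi-likelihood) in 1 model of 4 groups, over 15443 genes. The comparisons were KO against WT in vehicle and in inhibitor, inhibitor against vehicle in WT and in KO, the interaction, and KO against WT over the summed libraries of each line (16090 genes). The SE of a log2 fold change was its size over the square root of F. CPM used TMM-scaled totals, and single-library differences used log2(CPM + 0.1). Alternatives were library totals, DESeq2 1.42.0, no filter, the replicate block, a limit of 1 CPM, and leaving out libraries. The replicate block was the line itself for inhibitor against vehicle and for the interaction. For KO against WT it was the line number, although the labels name no link between WT and KO lines that share a number. The vehicle and inhibitor libraries of a line are paired by that line. Their deviations from the group means correlated with r of 0.429, -0.564 and -0.731 (WT lines 1 to 3) and -0.202, 0.579 and -0.381 (KO lines 1 to 3). The procedure was tested on simulated counts.

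Values in every library are given for the member with the highest mean cRPKM in each class, the 3 members higher and 3 lower with the smallest unadjusted p in each comparison, any member called in any analysis, and the 5 with the highest and 5 with the lowest SD. The members, lists and rules were chosen with earlier results of these data known. The own values of 4 of the 71 members are not reported here, although they enter every fit, sum and count.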

Additional observations from a re-analysis of the deposited data

How the results depend on the processing

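With edgeR, 0 genes were called in each of the 6 comparisons, and the count stayed at 0 to 0 over the fits that each left out 1 library or line, and at 0 with the replicate block. DESeq2 called 11 genes between KO and WT in vehicle, 18 in inhibitor and 87 over line sums, of which Kcnip3 was the 1 potassium channel gene in inhibitor and the 1 over line sums. Without a filter on low counts, 2 genes were called over line sums. Without the 3 libraries that stood apart, 2 genes were called in vehicle and 1 in inhibitor, none a member. The interaction value of Kcnk5 turned from 4.02 to -0.63 on the log2 scale without these 3 libraries. Between KO and WT in inhibitor, Kcnk5 turned from 2.06 to -1.18 without KO inhibitor line 3 and to -0.36 without the 3 libraries, and Kcnk6 from 1.50 to -0.81 and -0.090; over the leave-one-out fits they ranged from -1.18 to 2.86 and from -0.81 to 2.19. The cause was not tested. Without KO inhibitor line 3 the direction turned in 43 of the 71 members between KO and WT in inhibitor, in 25 for inhibitor within KO and in 28 for the interaction, and without KO line 3 in 26 over line sums. With the replicate block it turned in 1 to 5 members a comparison, with DESeq2 in 0 to 3, with library totals in 0 to 5 and without a filter in 0 to 7. The number of members at an unadjusted p below 0.05 ranged over the leave-one-out fits from 0 to 5 (KO against WT in vehicle), 1 to 6 (in inhibitor), 0 to 1 (inhibitor in WT), 0 to 7 (inhibitor in KO), 0 to 4 (interaction) and 1 to 6 (line sums). A limit of 1 CPM kept 66 of the 71 members. Depth limits the lowest members most: Kcnk13, Kcnrg, Kcnj14 and Kcng3 were among those with means below 1 CPM. Reads of the 24 members whose exons overlap another gene may be mixed with that gene's.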

Other observations

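Of the 93 measured potassium channel genes, 22 stayed below the limit, and 6 of these reached 0.5 CPM in some library. The KO inhibitor library of line 3 held the highest value in 7 of the 22: Kcne1l, Kcnk16, Kcnq1, Kcnv2, Kcnj16, Kcnj10 and Kcne3, where 38.4% of all tested genes were highest in it. Kcne3, a MinK subunit of epithelia, was at 3.97 CPM there and at 0 to 0.17 CPM in the other 11 libraries. Kcnj10, the inward rectifier of glia, was at 0.99 CPM there and at 0.11 to 0.46 CPM elsewhere. Among the astrocyte markers, Gfap was at 598 CPM in the same library, its highest value, and Slc1a2 at 71.3 CPM, its lowest. The part of these markers in the Kcnj10 value was not tested. Kcnj13 had no count in any library. Of the 5 annotated Kcn genes that are not protein coding, Kcnq1ot1, the imprinted antisense RNA of the Kcnq1 locus, had the highest mean, at 35.0 CPM, while Kcnq1 itself stayed below the limit.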
